A study of Mus musculus with 2 samples.

Results

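Granule neurons of the dentate gyrus were examined in single-cell RNA-seq of the hippocampus of old mice. They were selected on measured values, among cells with at least 2000 UMIs (unique molecular identifiers, 1 per counted molecule), by a gate with several conditions. A cell was kept when C1ql2, Dsp, Tdo2, Lct and Plk5 summed to at least 5 UMIs and to at least 3 per 10000 UMIs of the cell, and when it held Prox1. Slc17a7 also had to exceed Gad1 and Gad2 together, and the marker sum had to exceed 2 further sums, that of Fibcd1, Spink8 and Lefty1 and that of Mog, Mag and Aqp4. This gave 2900 of 13974 cells in the control library and 2263 of 13406 in the tomatidine library, 5163 of 27380 in all. Just inside the limit, 49 control and 33 tomatidine granule neurons had a marker sum of exactly 5, and just outside it 25 and 23 cells with a sum of 4 met every other condition.

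The animals were C57BL/6 mice, 21 months old at the start, which were fed for 3 months either a control diet or the same diet with 0.05% tomatidine, a steroidal alkaloid from tomato. Hippocampi of 4 mice were pooled in each group and each pool gave 1 library, so that no test between the groups was possible and every difference between them is a difference between 2 libraries. The hippocampi had been flash frozen, and fixed cells were profiled with gene-specific probes over 19059 genes. The labels do not give sex; the Methods name mice of both sexes, and of the granule neurons with at least 10000 UMIs, 97 of 2188 control cells (4.43%) and 70 of 1638 tomatidine cells (4.27%) held no UMI of a Y-linked gene.

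Granule neurons are the principal excitatory cells of the dentate gyrus. They receive input from the entorhinal cortex and send mossy fibers to CA3, and new ones are born in the adult, at a rate that falls steeply with age. They fire rarely, and those that fire strongly switch on immediate early genes and, later, genes for neuropeptides and secreted proteins such as Penk, which encodes proenkephalin, and Bdnf.

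Each granule neuron held a median of 15517.5 UMIs and 5531.5 genes in the control library and 13905 UMIs and 5334 genes in the tomatidine library. Mitochondrial transcripts took a median of 0.310% and 0.321% of the UMIs. In sum the granule neurons held 61099417 control and 44737337 tomatidine UMIs, of 279525565 and 259059908 in the libraries. The libraries shared 292 cell barcodes, of which 9 belonged to granule neurons in both. Intervals given here are at 95% and cover counting error only, not the variation between mice. Those of CPM and of CPM ratios also take each UMI as independent and leave out the variation between cells.

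The gate's own genes are given as a description, since they chose the cells. Prox1, the transcription factor that sets granule cell identity, stood at 502 counts per 1000000 UMIs of the summed cells (CPM) in control and 497 CPM in tomatidine granule neurons. CA1 neurons, gated on Fibcd1, Spink8 and Lefty1 (762 and 629 cells), held 11.7 and 11.1 CPM of Prox1, and CA3 neurons, gated on Iyd, Coch, Bok and Cpne4 (655 and 572 cells), held 47.3 and 30.4 CPM. C1ql2, a secreted protein of mossy fiber synapses, stood at 1314 and 1332 CPM against 9.72 to 15.2 CPM in the 4 CA1 and CA3 profiles. Tdo2, which breaks down tryptophan, stood at 39.1 CPM in both libraries and Lct at 120 and 119 CPM, while Dsp, a desmosomal protein, was at 256 CPM in control and 218 CPM in tomatidine granule neurons. The vesicular glutamate transporter Slc17a7 was at 1738 and 1715 CPM. Thus Prox1 and the 5 summed markers were present in both libraries and above the pyramidal neurons, while Slc17a7, which all these neurons share, stood at 2212 to 2586 CPM in CA1 and CA3 neurons. Gad1, which makes GABA and is known to be carried by granule neurons at a low level, stood at 168 and 163 CPM, against 19.8 to 40.6 CPM in CA1 and CA3 neurons, within the limit that the gate sets on it.

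No doublet caller was run. Transcripts of other cell types were also present, and results are given with and without the cells that carried them. With a limit chosen after the data were seen (at least 3 UMIs and 2 per 10000 of the markers of any 1 of 8 other types), 669 control granule neurons (23.1%) and 552 tomatidine granule neurons (24.4%) were marked, which left 2231 and 1711. Thalamic neuron markers marked 150 and 108 cells, oligodendrocyte markers 237 and 155, astrocyte markers 172 and 201, microglial markers 186 and 155, and choroid plexus markers 61 and 27. Over all granule neurons the 7 choroid plexus markers summed to 1464 CPM in control and 527 CPM in tomatidine, with Ttr (transthyretin) as the most abundant at 1201 and 399 CPM. The 7 oligodendrocyte markers summed to 1058 and 1003 CPM, the 6 astrocyte markers to 292 and 328 CPM, with Slc1a3 at 111 and 123 CPM, and the 8 microglial markers in the files to 231 and 210 CPM. The 4 endothelial markers in the files summed to 29.5 and 20.3 CPM, with Cldn5 at 12.7 and 8.52 CPM, and the 6 interneuron markers to 287 and 267 CPM, with Gad1 the most abundant. No marker on these lists was at 0. In granule neurons without marked cells the choroid plexus sum was 238 and 75.1 CPM and the oligodendrocyte sum 565 and 506 CPM, so the choroid plexus transcripts stayed lower in the tomatidine library. The part of these transcripts in the results was not tested beyond the values with and without the marked cells.

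Of the cells with at least 2000 UMIs, 20.8% (20.1 to 21.4) of the control cells and 16.9% (16.2 to 17.5) of the tomatidine cells were granule neurons, a difference of −3.87 points (−4.80 to −2.95). Oligodendrocytes, chosen by Mog and Mag, were also a smaller share with tomatidine, at 25.1% and 20.3%. CA1 neurons were at 5.45% and 4.69% and CA3 neurons at 4.69% and 4.27%. A share depends on how each pool was dissociated and captured, and with 1 library a group these cannot be told apart from the diet.

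Granule neurons were next set against CA1 and CA3 neurons. Of 8976 genes with at least 20 CPM in 1 of the 3 cell types, 350 (3.9%) were at least 2-fold higher in granule neurons than in both pyramidal types in both libraries and 263 (2.93%) were at least 2-fold lower. As the cells were chosen by expression, these contrasts are a description.

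The genes that stood furthest above both neighbours, taken by the smallest of the 4 ratios, were led by Glis3, a zinc finger transcription factor, at 176 CPM in control and 193 CPM in tomatidine granule neurons and at 3.26 to 5.29 CPM in CA1 and CA3 neurons, a log2 ratio of at least 5.19. Pdyn, the precursor of the dynorphin peptides that mossy fibers release, stood at 53.9 and 54.8 CPM and at most 1.58 CPM in the neighbours (smallest log2 ratio 5.12). Stxbp6, a binding partner of the vesicle fusion machinery also known as amisyn, stood at 583 and 621 CPM (4.04). That all 3 stood above the highest level in the neighbours follows from how they were picked. Onecut1, another transcription factor, had a smallest log2 ratio of 4.35, Slc29a4, a monoamine transporter of the plasma membrane, 4.09, and Dock10, an activator of small GTPases, 3.91. Il1r1, the receptor for interleukin-1, stood at 70.3 and 74.7 CPM in granule neurons against 1.44 to 5.13 CPM in CA1 and CA3 neurons (3.85). Htra4, Pla2g2f, Vwa3a, Spsb1 and Nek10 completed the leading 12, with smallest ratios of 3.76 to 4.53. Both granule neuron values of each of the 12 genes lay above all 4 values of the neighbours. This follows from the choice of genes by their smallest ratio and is not a further result.

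The genes furthest below both neighbours were led by Neurod6, a transcription factor of pyramidal neurons, at 26.3 and 27.6 CPM in granule neurons and 475 to 660 CPM in CA1 and CA3 neurons, a log2 ratio of −4.10 or lower. Klk8 (neuropsin), a secreted protease, stood at 2.52 and 2.28 CPM against 31.0 to 39.2 CPM, and Sema3e, a guidance cue, at 8.28 and 9.99 CPM against 95.01 to 164 CPM. Thsd4, Cpne7, Slc9a2, Rem2 and Plch2 were the others, with ratios of −3.39 or lower. Of 22 activity-regulated effector genes measured, 8 were at least 2-fold lower in granule neurons than in both neighbours and 0 were higher. Arc, an immediate early gene whose product acts at synapses, stood at 34.9 and 34.4 CPM in granule neurons against 130 to 270 CPM in CA1 and CA3 neurons. Bdnf was the other way round, at 194 and 183 CPM in granule neurons and 110 to 134 CPM in the neighbours.

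**Figure D1:**
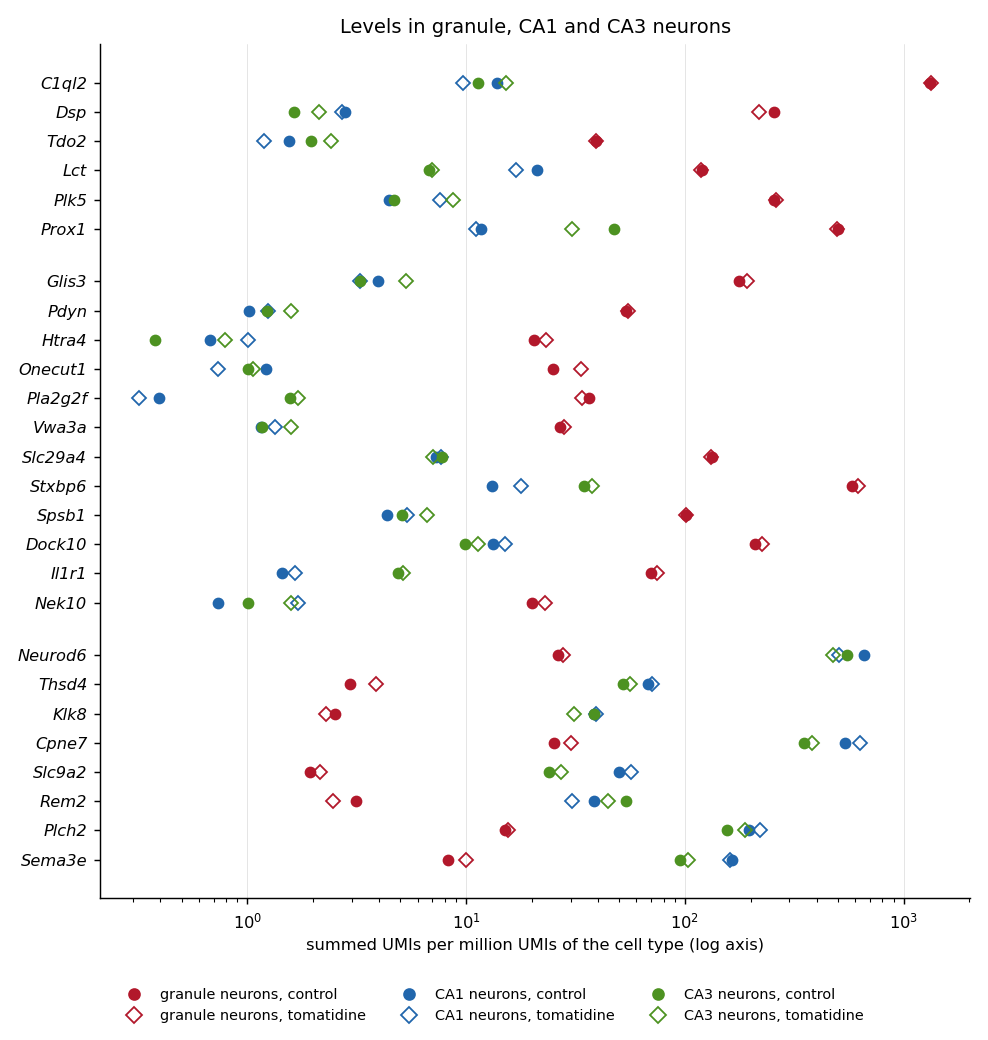
Level of each gene in CPM (log axis) in granule, CA1 and CA3 neurons, with filled circles for the control library and open diamonds for the tomatidine library. The upper block holds genes of the gate and the middle block the 12 genes furthest above both neighbours (Glis3 to Nek10). The lower block holds the 8 furthest below (Neurod6 to Sema3e). In the middle block both granule values lie to the right of all 4 others, which follows from how these genes were picked.

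Granule neurons were not alike among themselves. Variation was read as the variance over the mean of a gene's UMIs with each cell at 5000 UMIs, where random sampling alone gives a value near 1. Over all granule neurons the most variable genes were led by transcripts of other cell types, Ttr (variance over mean of 571 and 683), Ptgds, Apoe and Cst3. Without the marked cells the 10 most variable genes were Ccn2, Fos, Ttr, Pdgfra, Penk, Cspg4, Ptgds, Ncdn, Nrgn and Gpr17. Pdgfra, Cspg4 and Gpr17 are markers of oligodendrocyte precursors, a type that the 8 marker sets did not hold. Penk had a variance over mean of 6.43 in control and 9.30 in tomatidine, so this neuropeptide gene set granule neurons of both libraries apart from one another.

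Penk (chr4:4133531-4138819 in mm10, minus strand) was therefore used to sort the granule neurons without marked cells that held at least 10000 UMIs, with limits chosen after the data were seen. At least 5 Penk UMIs per 10000 were found in 111 of 1653 control cells (6.72%; 5.56 to 8.03) and in 72 of 1204 tomatidine cells (5.98%; 4.71 to 7.47), called Penk-rich here. No Penk UMI was found in 1107 and 837 cells, called Penk-free, and 435 and 295 cells lay between. Median depth was 17507 and 17280.5 UMIs in Penk-rich cells and 19612 and 17424 UMIs in Penk-free cells, so the Penk-rich cells were not the deeper ones. At 5000 UMIs per cell, 20.5% of all control and 20.7% of all tomatidine granule neurons held a Penk UMI, against 5.89% and 6.06% of oligodendrocytes, whose median depth was 6118 and 5868 UMIs. Penk itself stood at 114 CPM in control and 127 CPM in tomatidine granule neurons, a log2 ratio of 0.15 (0.10 to 0.20).

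C1ql2, Prox1 and Slc17a7 are genes of the gate, and their levels in the Penk classes are a description. C1ql2 stood at 1651 CPM in Penk-rich and 1209 CPM in Penk-free cells of the control library and at 1712 and 1270 CPM in the tomatidine library. Prox1 was at 480 and 562 CPM in control and 467 and 570 CPM in tomatidine. Slc17a7 was at 1840 and 1794 CPM in control and 1819 and 1823 CPM in tomatidine. Somatostatin (Sst), an interneuron peptide, was at 11.7 and 8.38 CPM in control and 10.5 and 8.33 CPM in tomatidine. Of 2 CA3 and 2 CA1 markers measured, 0 differed 2-fold in both libraries. The medians of their smaller and larger log2 ratios were 0.45 and 0.56 for CA3 and −0.42 and 0.46 for CA1 markers. Over all genes measured they were −0.12 and 0.05. Gad1 was higher in Penk-rich cells, at 249 against 168 CPM in control (log2 ratio 0.57; 0.45 to 0.69) and 243 against 161 CPM in tomatidine (0.59; 0.44 to 0.75). Cells with more Gad1 and Gad2 than Slc17a7, and cells marked by interneuron genes, had been left out of both classes.

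Cdkn1a, which encodes the cell cycle inhibitor p21 that the study followed as a sign of senescence, was more abundant in Penk-rich than in Penk-free granule neurons of both libraries. In the control library it stood at 19.8 CPM (14.8 to 26.1) in Penk-rich and 1.87 CPM (1.38 to 2.48) in Penk-free cells, a log2 ratio of 3.41 (2.81 to 4.01). In the tomatidine library it stood at 18.5 CPM (12.5 to 26.4) and 1.5 CPM (0.988 to 2.18), a log2 ratio of 3.62 (2.82 to 4.43). The intervals of Penk-rich and Penk-free cells did not overlap in either library, whereas those of each of these 2 classes overlapped between the libraries. Intermediate cells stood at 8.86 CPM (7.25 to 10.7) in control and 5.497 CPM (4.07 to 7.27) in tomatidine. With the marked cells kept in they stood at 9.84 CPM (8.43 to 11.4) and 4.95 CPM (3.80 to 6.33), which did not overlap. These intervals take each UMI as independent. The 174 control UMIs lay in 81 of 594 such cells, up to 18 in 1 cell, and the 63 tomatidine UMIs in 44 of 419, up to 4. At a fixed 10000 UMIs per cell, a Cdkn1a UMI was found in 12.2% (6.77 to 19.8) of Penk-rich, 6.14% (4.07 to 8.82) of intermediate and 1.45% (0.831 to 2.34) of Penk-free control cells. The tomatidine shares were 11.3% (5.07 to 20.99), 5.26% (3.004 to 8.46) and 1.49% (0.782 to 2.56). The share was thus ordered by Penk in each library, and only the intervals of intermediate and Penk-rich cells overlapped. With the marked cells kept in, the shares were 12.9%, 6.62% and 1.83% in control and 10.4%, 4.76% and 1.85% in tomatidine. The intervals of the intermediate shares, 4.75 to 8.92 in control and 2.93 to 7.26 in tomatidine, overlapped, so no difference between the diets is read from that class. Penk-rich cells held 25% of the Cdkn1a UMIs of the sorted control cells with 6.42% of all their UMIs, and 28.3% with 5.68% in tomatidine. With 51 control and 30 tomatidine UMIs in Penk-rich cells and 48 and 27 in Penk-free cells, Cdkn1a stayed under the limit of 20 CPM in at least 1 class that the other genes had to reach, and was singled out because the study followed it. Of 2 cell cycle inhibitors and 8 p53 targets over that limit, 0 were 2-fold higher or lower in Penk-rich cells of both libraries.

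**Figure D2:**
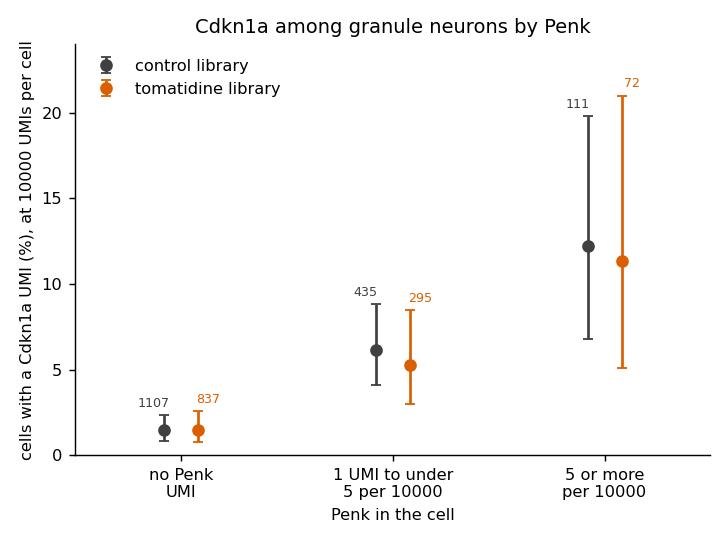
Percent of granule neurons with a Cdkn1a UMI at 10000 UMIs per cell (vertical axis), by Penk content of the cell (horizontal axis), in the control and the tomatidine library. Points are expected shares, bars exact 95% binomial intervals and the numbers above them the cells in each class; the share is 1.45% and 1.49% without Penk and 12.2% and 11.3% in Penk-rich cells.

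A larger set of genes went with Penk. Of 8534 genes with at least 20 CPM in 1 of the classes, 155 (1.82%), Penk itself among them, were at least 2-fold higher and 108 (1.27%) at least 2-fold lower in Penk-rich cells of both libraries. Nptx2 (chr5:144545902-144557478 in mm10), a secreted neuronal pentraxin that gathers AMPA receptors at synapses, stood at 222 CPM in Penk-rich and 14.1 CPM in Penk-free control cells and at 224 and 15.2 CPM in tomatidine cells. Inhba, the activin A subunit, stood at 87.9 and 9.47 CPM in control and 70.9 and 11.7 CPM in tomatidine, and Bdnf at 450 and 165 CPM and at 513 and 145 CPM. In both libraries all 3 of these secreted proteins, picked after their values were seen, stood higher in Penk-rich cells. The 20 genes with the largest smaller ratio included the transcription factors Batf3 (log2 ratios of 4.24 and 4.40), Atf3 (3.66 and 5.06) and Nhlh1 (3.17 and 3.57), the prohormone convertase Pcsk1, which cuts peptide precursors (3.30 and 3.19), the sorting receptor Sorcs3 (3.28 and 3.69), the ligand Wnt10a (3.41 and 3.28) and the dopamine receptor Drd1 (2.65 and 3.30). Slc23a3 led the 20, with 5.29 and 5.47, and Nptx2, Shisa8, Mylk3, Fbln2, Gpnmb, Tmc6, Igfbp6, Trip10, Gpr153, Hhatl, Necab3 and Smoc1 were the rest.

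Among the gene lists, 10 of 16 immediate early transcription factors and 14 of 23 activity-regulated effectors were at least 2-fold higher in Penk-rich cells of both libraries and 0 of either list were lower. A gene could reach the limit of 20 CPM through the Penk-rich class alone, as the effector Dusp1 did at 56.0 against 10.9 CPM in control. These counts are therefore a description, and the 1.82% of all genes rests on the same limit. Nr4a1 had log2 ratios of 2.86 in control and 1.69 in tomatidine, Egr1 of 2.08 and 1.54, Fosb of 1.79 and 1.91 and Npas4 of 2.31 and 1.47. Fos was not among them, at 31.1 and 12.3 CPM in control and 6.16 and 7.39 CPM in tomatidine. Of 12 neuropeptide and processing genes, 4 were higher and 1 was lower, while Pdyn was near equal, with log2 ratios of 0.19 (−0.05 to 0.43) and −0.16 (−0.48 to 0.15). Penk, which sorted the cells, is itself a neuropeptide gene, and wherever a list count holds it that call follows from the sorting. Of 27 heat shock genes 1 was higher, and 0 of 70 nuclear respiratory chain genes, 0 of 12 AMPA, NMDA and kainate receptor subunits and 0 of 12 genes of the integrated stress response differed 2-fold in both libraries.

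Of 16 granule neuron genes outside the gate, 3 were at least 2-fold lower in Penk-rich cells of both libraries (Calb1, Igfbp5 and Il16) and 0 were higher. Calb1, the calcium buffer of mature granule neurons, stood at 156 CPM against 377 CPM in control and 155 against 342 CPM in tomatidine. Il1r1 had log2 ratios of −1.66 and −1.88, and 2 genes of the gate were lower as well, Tdo2 with −2.88 and −2.29 and Dsp with −1.37 and −1.47. The lowest 15 genes were led by Ogn (osteoglycin, −3.59 and −4.48) and Gdf10, a ligand of the TGF-beta family (−3.29 and −2.49), and held Cacna1g, a T-type calcium channel (−2.53 and −1.99), Gfra2, a receptor for neurturin (−2.20 and −2.56), and Hrk, an activator of cell death (−2.02 and −2.37). Tubb2b, Chst9, Gpc3, Fam160a1, Matn2, Wnt9a, Trib2, Rtl3 and Ccbe1 were the others besides Tdo2.

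**Figure D3:**
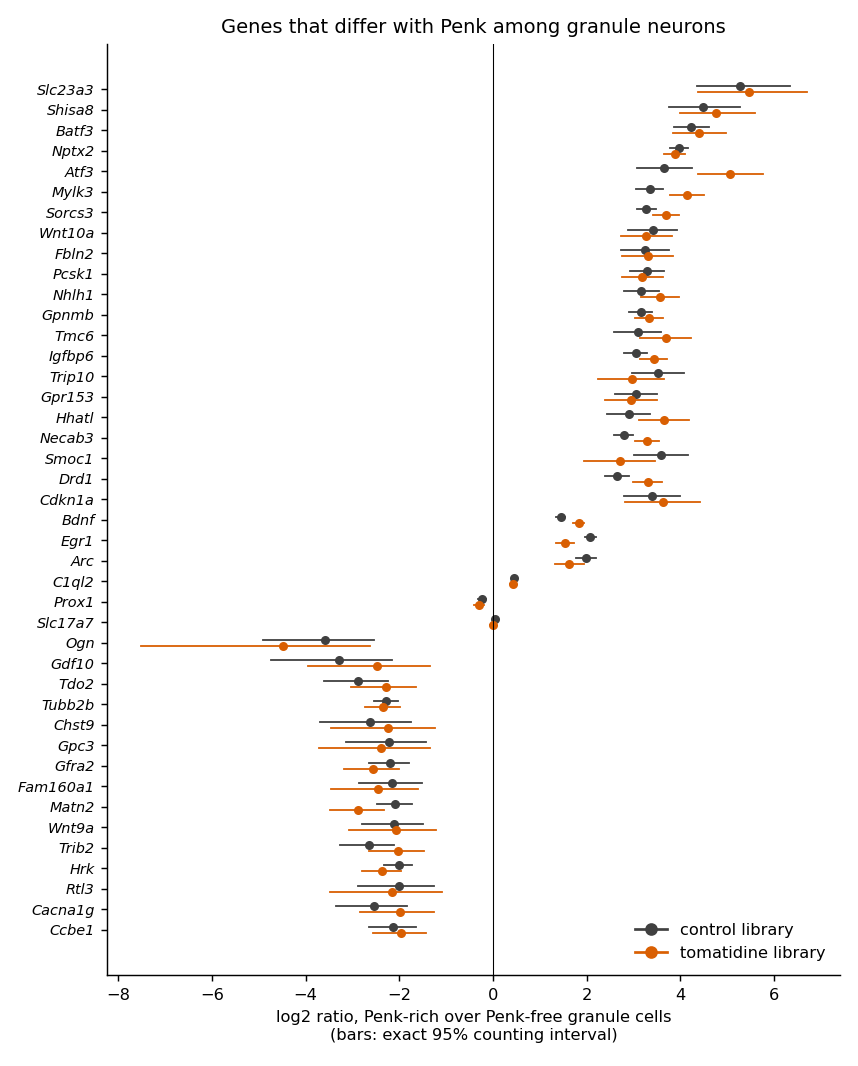
Log2 ratio of CPM in Penk-rich over Penk-free granule neurons (horizontal axis) for each gene, with dark points for the control library, orange points for the tomatidine library and exact 95% counting intervals as bars. The 20 highest genes, 7 genes of the text (Cdkn1a to Slc17a7) and the 15 lowest are shown; for the highest 20 and for Cdkn1a both points lie at 2.65 or above, and for the lowest 15 both lie at −1.96 or below.

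Promoter sequences from RefSeq (build GRCm38.p6) were read for the cyclic AMP response element, TGACGTCA, the site of CREB, a factor that neuronal activity switches on. It reads the same on both strands. The AP-1 motif TGANTCA was also searched on both strands, and a TGACGTCA does not itself hold one. In the 250 bases before the start, 4 of the 19 activity-regulated effectors with an entry held TGACGTCA (21.1%), against 478 of all 27025 genes in the table (1.77%). Of the 20 genes highest in Penk-rich cells, 17 had an entry and 1 held it (5.88%), and of 16 immediate early transcription factors 1 did (6.25%). TGANTCA was in 1 of 19, 0 of 17 and 0 of 16 of these sets and in 7.82% of all genes. The 4 effectors with the element are shown, and all 4 had log2 ratios of Penk-rich over Penk-free cells above 0 in both libraries. Those of Pcsk1 are given above, and Dusp1, a phosphatase of MAP kinases, had 2.36 and 1.68. Scg2, a granin of secretory vesicles, had 1.39 and 1.22. Plk2, a kinase of active synapses, had 1.10 and 0.88, which is under 2-fold in tomatidine. Capitals mark TGACGTCA, which starts 78 bases before the start in Pcsk1, 143 in Dusp1, 68 in Scg2 and 62 in Plk2. A match is a description and says nothing of binding in these cells. They lie at chr13:75089607-75089856 (plus strand, Pcsk1), chr17:26508473-26508722 (minus, Dusp1), chr1:79440027-79440276 (minus, Scg2) and chr13:110394794-110395043 (plus, Plk2), and read 5′ to 3′ on the gene's strand.
Pcsk1: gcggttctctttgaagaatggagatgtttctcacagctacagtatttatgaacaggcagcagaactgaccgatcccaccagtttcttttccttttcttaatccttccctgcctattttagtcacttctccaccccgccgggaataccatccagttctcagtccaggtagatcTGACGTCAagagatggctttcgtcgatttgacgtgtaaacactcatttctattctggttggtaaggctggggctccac
Dusp1: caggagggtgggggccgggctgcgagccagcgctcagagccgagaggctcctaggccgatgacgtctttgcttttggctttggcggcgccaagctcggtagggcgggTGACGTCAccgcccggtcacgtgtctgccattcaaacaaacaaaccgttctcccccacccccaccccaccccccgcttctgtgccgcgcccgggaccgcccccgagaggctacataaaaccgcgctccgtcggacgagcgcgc
Scg2: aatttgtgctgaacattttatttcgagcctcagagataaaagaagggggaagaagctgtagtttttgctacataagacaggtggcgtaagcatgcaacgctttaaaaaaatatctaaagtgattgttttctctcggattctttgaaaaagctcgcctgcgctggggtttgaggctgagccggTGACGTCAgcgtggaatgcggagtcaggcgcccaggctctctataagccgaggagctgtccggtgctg
Plk2: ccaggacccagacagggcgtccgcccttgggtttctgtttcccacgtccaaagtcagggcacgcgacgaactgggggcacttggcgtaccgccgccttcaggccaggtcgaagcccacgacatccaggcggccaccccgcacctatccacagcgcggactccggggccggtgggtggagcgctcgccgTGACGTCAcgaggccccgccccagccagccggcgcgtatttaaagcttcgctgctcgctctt

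A further axis followed the markers of the dorsal and ventral dentate gyrus, which are known to differ in connections and in expression. Of the granule neurons without marked cells and with at least 10000 UMIs, 84 of 1653 control cells (5.08%; 4.07 to 6.25) and 89 of 1204 tomatidine cells (7.39%; 5.98 to 9.02) held more UMIs of Trhr, Nr2f2 and Tox3 than of Lct, Gsg1l and Spata13. Of 8530 genes with at least 20 CPM in 1 of the classes, 90 (1.06%) were at least 2-fold higher and 25 (0.293%) lower in these ventral-type cells than in dorsal-type cells of both libraries; these counts hold the 3 ventral and the 3 dorsal genes used to sort the cells. Grp, the gastrin-releasing peptide, stood at 59.1 against 8.57 CPM in control and 49.2 against 11.8 CPM in tomatidine. Htr1a, the serotonin 1A receptor, stood at 84.2 against 27.1 CPM and at 76.4 against 29.0 CPM, and Sstr1, a somatostatin receptor, at 194 against 33.1 CPM and at 133 against 34.8 CPM. These 3 genes, picked after their values were seen, stood higher in the ventral-type cells of both libraries. Clmp, a cell adhesion molecule, was the lowest, at 8.22 against 80.6 CPM and 6.04 against 82.7 CPM, and Stat3 stood at 14.9 against 39.5 CPM and 12.5 against 39.9 CPM. Cdkn1a had log2 ratios of −0.54 (−1.87 to 0.54) and −0.88 (−2.53 to 0.39), with intervals that hold 0. The share of all granule neurons with a Trhr UMI at 5000 UMIs was 3.26% in control and 4.63% in tomatidine, a difference of 1.37 points (0.28 to 2.51), against 0.476% and 1.10% of oligodendrocytes. How much of the ventral end each pool held was not tested.

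Between tomatidine and control, granule neurons differed little in most genes. Of 11903 genes with at least 200 UMIs over both libraries, 134 (1.13%) had a log2 ratio of at least 0.5 and 138 (1.16%) of at most −0.5. The median log2 ratio was 0.03, and 95% of the genes lay between −0.30 and 0.38. Without the marked cells, 53 of 11103 genes (0.477%) were past the limit upward and 22 (0.198%) downward. Of the 134 higher genes 25 were also past it there (18.7% of 134, 47.2% of 53), and of the 138 lower genes 12 were (8.70% of 138, 54.5% of 22). Of the rest, 78 higher and 96 lower genes had too few UMIs to be measured again. Leaving out the marked cells thus changed most of both lists, in part because fewer genes were then measured.

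Of the 10 lowest genes with at least 1000 UMIs, 4 were on the marker lists of other cell types used here, Prkcd, Synpo2, Ttr and Enpp2. Prkcd, a protein kinase C that marks thalamic neurons, stood at 55.1 CPM in control and 11.5 CPM in tomatidine granule neurons, a log2 ratio of −2.26 (−2.40 to −2.13), and at −0.84 (−1.16 to −0.53) without the marked cells. Ttr, made by the choroid plexus, was at 1201 and 399 CPM, with −1.59 (−1.61 to −1.57) and −2.98 (−3.10 to −2.87) without marked cells, and between −4.75 and −0.45 over all alternatives; in oligodendrocytes it stood at 1562 and 81.2 CPM. Synpo2 was at −1.21 and −0.13 (−0.43 to 0.16) without marked cells, and Amotl1 at −1.15 and 0.15 (−0.17 to 0.47). Zic1, Zic2, Plekhg1 and Pcp4l1 lay between −1.90 and −0.96, and between −0.79 and −0.37 without marked cells, while Ecrg4 and Enpp2, which the choroid plexus also makes, were at −1.57 and −1.21, and at −1.37 and −0.95; Ecrg4 was at −0.11 with a gate of at least 10 marker UMIs and at −2.61 with the cell filters of the Methods. In the thalamic set marked cells were 5.17% and 4.77% of granule neurons, and the 5 thalamic markers summed to 176 and 101 CPM over all cells and to 28.6 and 27.4 CPM without the marked ones. These 5 genes, Prkcd and Synpo2 among them, also marked the cells, so removing those cells lowers their levels by construction. Without marked cells the lowest also held Npy, neuropeptide Y, with 803 and 380 UMIs and a log2 ratio of −0.63 (−0.81 to −0.45); in oligodendrocytes Npy stood at 103 and 38.3 CPM. Adamts1, a secreted protease, had 1073 and 554 UMIs and −0.50 (−0.65 to −0.35). Trim59, Wnt9a, Pcdhb4, Apod, Hbb-bs and Cycs followed, from −0.47 to −0.39.

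Most of the highest genes kept a similar ratio without the marked cells. Ccn3, a matricellular protein, stood at 21.5 CPM in control and 42.7 CPM in tomatidine granule neurons, a log2 ratio of 0.99 (0.88 to 1.09), and at 0.90 (0.77 to 1.02) without marked cells. Traip, a ubiquitin ligase of DNA replication, was at 25.2 and 41.3 CPM (0.71, and 0.75 without marked cells), and at 1.08 in CA1 and 0.61 in CA3 neurons. Sec1 was at 0.68 and 0.63, Cstad at 0.62 and 0.67, Fbln2, a matrix protein, at 0.61 and 0.63, and Spag5, a spindle protein, at 0.58 and 0.55. These 6 were thus past 0.5 with and without the marked cells. Ccn3, however, was at 0.19 under a stricter removal of cells with 3 or more UMIs of other markers. It was at −0.21 in cells without a Y-linked UMI, only 97 control and 70 tomatidine cells with 1544196 and 1103903 UMIs of all genes. No interval is given for that value, and its sign is not read. Ccn2, a matricellular protein related to Ccn3, was at 9.07 and 16.1 CPM (0.83, and 0.67 without marked cells), but at −3.44 under that stricter removal and at −0.58 with a gate of at least 10 marker UMIs. Baiap3 and Ldb2 were at 0.86 and 0.56, and at 0.12 and 0.23 without marked cells, and Gng4 at 0.84 and 0.50. Without marked cells the highest also held Col5a1 at 0.63, Ptgds at 0.60, Pnisr at 0.59, Cpne7 at 0.56 and Snhg11, a host gene of small nucleolar RNAs, at 0.56. Snhg11 stood at 172 and 248 CPM in granule neurons and had log2 ratios of 0.94 in CA1 and 0.72 in CA3 neurons, so it was higher in the tomatidine library in all 3 neuron types.

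**Figure D4:**
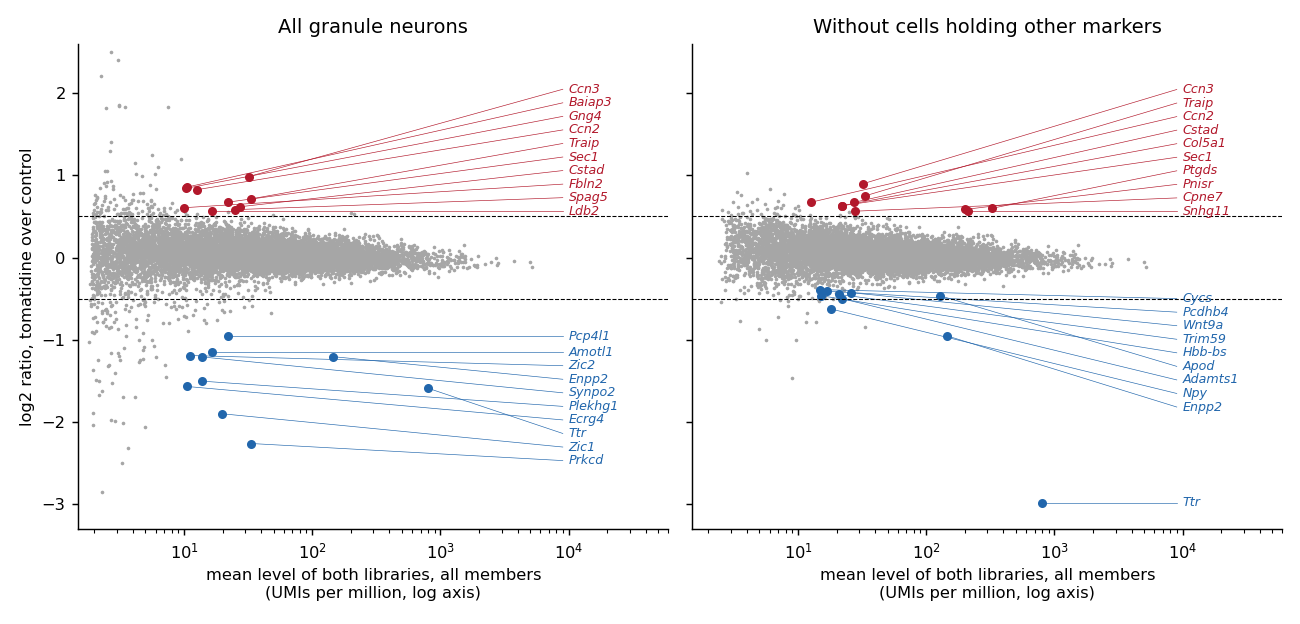
Log2 ratio of tomatidine over control (vertical axis) against the mean level in both libraries (CPM, log axis), 1 point a gene, over all granule neurons (left) and without the cells that held markers of other types (right). Dashed lines mark 0.5 and −0.5 and colours the 10 highest and 10 lowest genes with at least 1000 UMIs; Prkcd lies at −2.26 on the left and at −0.84 on the right, where it has under 1000 UMIs and is not coloured.

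Gene lists chosen for granule neuron biology were compared with the median of 0.03 over all genes; scaling by trimmed means (TMM) lowers every ratio here by 0.03. The 16 granule neuron genes outside the gate had a median of 0.03, 25 activity-regulated effectors −0.04, and 17 immediate early transcription factors 0.02, which turns below 0 with TMM. The 3 ventral genes had the highest median of the 24 lists, 0.26, and 0.35 without marked cells. The nuclear genes of the respiratory chain were the most uniform: 68 of 72 lay below 0, with a median log2 ratio of −0.09 against 0.03 for all genes, of which 41.3% lay below 0. Without marked cells 67 of 72 lay below 0, and CA1 and CA3 neurons had 66 and 70 of 72 below 0, with medians of −0.11 and −0.12. Atp5b, the beta subunit of ATP synthase, stood at 480 and 422 CPM (−0.19; −0.21 to −0.16), and Uqcrh of complex III at 8.61 and 5.81 CPM (−0.57; −0.79 to −0.35). Uqcrh was the 1 gene of the list past −0.5, and most of the list lay below 0 in all 3 neuron types. The 13 genes of the mitochondrial genome lay the other way in granule neurons, with a median of 0.07 and 11 above 0, but 8 of 13 lay above 0 without marked cells (median 0.043), near the 58.9% of all genes there. Their median was 0.15 in CA1 and −0.11 in CA3 neurons.

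Of 17 AMPA, NMDA and kainate receptor subunits 14 lay above 0, with a median of 0.12. Gria2, the subunit that keeps calcium out of AMPA receptors, stood at 1433 and 1595 CPM (0.15; 0.14 to 0.17), and Grin2b, an NMDA receptor subunit, at 860 and 893 CPM. CA1 and CA3 neurons had 14 of 15 and 14 of 17 subunits above 0, with medians of 0.19 and 0.18; of all genes 58.7% lay above 0 in granule, 61.8% in CA1 and 62.6% in CA3 neurons, with medians of 0.05 in CA1 and in CA3 neurons. Of 30 heat shock genes 23 lay below 0 (median −0.08), with Hspa8, a constitutive chaperone, at 632 and 569 CPM. Of 22 genes of cholesterol synthesis and uptake 16 lay below 0 (median −0.07). In CA1 neurons 18 of 22 lay above 0 (median 0.14), and in CA3 neurons 13 of 22 did (median 0.03). Whether the lists differ between the neuron types was not tested.

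Lists of other receptors, of channels and of release genes had medians near 0. Medians were −0.01 for 12 GABA-A receptor subunits, 0.03 for 7 metabotropic glutamate receptors, 0.04 for 42 potassium and HCN channels, 0.03 for 27 sodium and calcium channels and −0.02 for 39 genes of vesicles and release. In the same order 5, 4, 26, 18 and 18 genes lay above 0 and 7, 3, 16, 9 and 21 below. Past −0.5 were 1 metabotropic receptor, Grm4 (18.1 and 10.7 CPM), and 2 potassium and HCN channels, Hcn4 (4.63 and 2.39 CPM) among them. Without marked cells 0 of 7 and 0 of 40 genes measured in these lists were past it. Gabrd, the delta subunit of extrasynaptic GABA-A receptors, stood at 176 and 146 CPM (−0.26; −0.31 to −0.22), and at −0.13 without marked cells. Tac1 and Tac2, tachykinin precursors, had log2 ratios of 1.83 and −2.50 over all granule neurons and of 0.19 (−0.41 to 0.79) and −0.63 (−1.59 to 0.26) without marked cells. The median of the neuropeptide genes was 0.06 over the 17 measured in all granule neurons and 0.06 over the 14 measured without marked cells.

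Lists linked to ageing and senescence showed no common direction. Of 36 genes of the senescence-associated secretory phenotype (SASP) 10 reached 200 UMIs, with 6 below and 4 above 0 and a median of −0.10, and −0.03 without marked cells. Igfbp7, an IGF binding protein, was the 1 gene past −0.5, at −0.80, and at −0.56 (−1.17 to 0.01) without marked cells. Cxcl12, a chemokine that granule neurons are known to make, was the most abundant, at 212 and 197 CPM (−0.10; −0.14 to −0.06). The 16 p53 targets had a median of −0.02, 23 genes of the integrated stress response 0.03, 15 interferon response genes −0.00 and 16 corticosteroid receptors and targets −0.03. Of these 4 lists, p53 targets had 1 gene past 0.5 (Phlda3, 0.55) and 1 past −0.5 (Cdkn1a), and the interferon list had 1 past 0.5 (Ifit3, 0.92, and 0.05 without marked cells). Newborn cell genes had a median of −0.03 over 7 genes. Dcx, a microtubule protein of young neurons, was found in 4.06% of control and 5.12% of tomatidine granule neurons at 5000 UMIs, near the 2.75% and 3.60% of oligodendrocytes, so that newborn granule cells could not be told apart from that level at this depth.

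**Figure D5:**
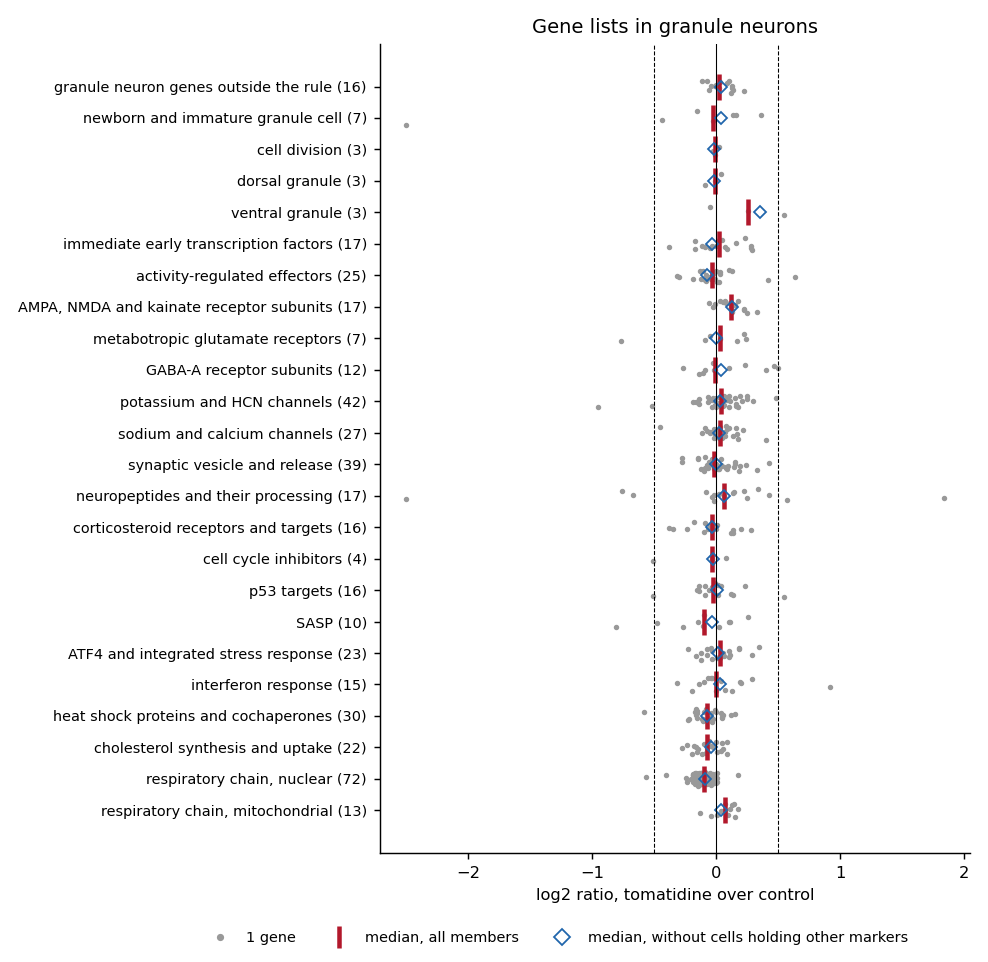
Log2 ratio of tomatidine over control in granule neurons (horizontal axis) for the genes of each of 24 lists, with the number of genes measured in brackets. Grey points are genes, red bars list medians over all granule neurons and open diamonds medians without cells that held other markers; 68 of 72 nuclear respiratory chain genes lie below 0.

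Cdkn1a (chr17:29090976-29100727 in mm10, plus strand) was followed over all granule neurons because p21 was among the study's markers of senescence. It had 351 UMIs in control and 181 in tomatidine granule neurons, or 5.74 and 4.05 CPM, a log2 ratio of −0.51 (−0.77 to −0.24). Without marked cells the ratio was −0.32 (−0.65 to −0.00), with both sets of cell filters in the Methods it was 0.013, and under the stricter removal of cells with other markers it was 0.38, so that its sign depended on which cells were counted. A Cdkn1a UMI was found at 5000 UMIs in 1.89% (1.42 to 2.47) of control and 1.80% (1.29 to 2.46) of tomatidine granule neurons, a difference of −0.09 points (−0.84 to 0.70). As deposited, without thinning, the shares were 6.34% and 5.44%. Oligodendrocytes held a UMI in 4.16% and 2.77% of cells at 5000 UMIs, so the share over all granule neurons did not stand above that of oligodendrocytes, and no difference between the diets is read from it. How much Cdkn1a oligodendrocytes make themselves was not tested. The share in Penk-rich cells, 12.2% and 11.3% at 10000 UMIs, stood above the 8.08% and 6.12% of oligodendrocytes at that depth, with overlapping intervals. The most Cdkn1a UMIs in a granule neuron were 18 in control and 7 in tomatidine. Cdkn2a, which encodes p16, had 11 and 5 UMIs in all, in 10 and 5 granule neurons, too few to compare.

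Immediate early genes mark neurons that were recently active. At 5000 UMIs per cell, 42.6% (40.7 to 44.5) of control and 39.9% (37.8 to 42.0) of tomatidine granule neurons held a UMI of Arc, Fos, Egr1, Npas4 or Junb, a difference of −2.69 points (−5.44 to 0.08). Oligodendrocytes reached 53.1% and 58.1%, so the combined share in granule neurons did not stand above theirs and no difference between the diets is read from it. Arc alone was found in 9.57% and 8.03% of granule neurons and 33.4% and 40.2% of oligodendrocytes. Junb stood furthest above the oligodendrocytes among the 5, in 19.2% (17.7 to 20.7) and 17.9% (16.3 to 19.6) of granule neurons against 8.76% and 7.76% of oligodendrocytes, and Egr1 was closer, at 22.4% and 21.4% against 18.7% and 19.5%. Nptx2 and Bdnf also stood above the oligodendrocytes, Nptx2 with 12.04% and 11.9% against 3.67% and 4.42% and Bdnf with 58.2% and 54.3% against 6.47% and 6.23%.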

How the data were processed

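The deposited matrices held UMI counts per gene and cell, not normalized; the authors made them with Cell Ranger (8.0.0 in the submitters' notes, 7.1.0 in the matrix header) on mm10. Both were used whole, with no ambient RNA correction. The cells, gene lists and comparisons were chosen with earlier results of these data known. UMIs were summed over granule neurons and scaled to CPM in Python 3.11.15 (numpy 2.4.6, scipy 1.17.1, pandas 2.3.3). Ratios of genes with at least 200 UMIs over both libraries carry exact conditional binomial intervals, shares exact binomial and differences of shares Newcombe intervals, and CPM exact Poisson intervals, all at 95%. Thinned shares are expected values at 3000, 5000 or 10000 UMIs, leaving out shallower cells. Ratios were tested on simulated sums drawn from a Poisson model, the same that the intervals assume. That test says nothing of variation between cells or mice. Named genes were the 12 highest and 8 lowest against CA1 and CA3 neurons (at least 20 CPM), the 10 highest and 10 lowest with tomatidine (at least 1000 UMIs), the most abundant and extreme members of each list, and the 10 most variable. Genes named for the Penk and ventral classes (at least 20 CPM and found in at least 10% of the cells of the class where they were higher, in both libraries) and the classes themselves were chosen after their values were seen. Alternatives were other gates, cell and gene filters, scaling by TMM (edgeR 4.0.16 in R 4.3.3) or by the median of ratios, and a mean over cells. With 1 library a group no model was fitted. Values of some named genes are not reported here.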

Additional observations from a re-analysis of the deposited data

Results flagged for a closer look

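Ccn2, Hbb-bs and Synpo2 were picked out because they lay on opposite sides of 0 in granule and CA1 neurons. Ccn2 had a log2 ratio of tomatidine over control of 0.83 in granule neurons and of −0.46 (−0.86 to −0.07) in CA1 neurons, with 181 and 81 UMIs. Hbb-bs, a beta globin, had −0.57 in granule neurons and 0.35 (0.06 to 0.64) in CA1 neurons, with 233 and 183 UMIs. Synpo2 had −1.21 in granule neurons, −0.13 without the marked cells, and 0.66 (0.16 to 1.16) in CA1 neurons, with 71 and 69 UMIs. With 1 library in each group, the difference between the neuron types was not tested.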

How the results depend on the processing

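No paired analysis was possible because each group held 1 library. Of 300 list medians under the alternatives 270 stayed between the median lower and the median upper interval limit of the list's genes. These limits belong to single genes and are not the counting error of a median. Of 214 values of 20 named genes 112 moved by less than their counting error, 95 moved further and 7 changed sign. In cells without a Y-linked UMI Sec1, Spag5 and Traip reached 1.40, 1.38 and 1.25. The number of genes higher with tomatidine (134) became 85 with at least 10 marker UMIs, 63 with the study's cell thresholds, 18 in cells without a Y-linked UMI, 69 without members holding 3 UMIs of other types, 53 without marked cells, 62 in dorsal cells of those, and 569 or 1026 with genes of at least 20 or 1 UMI. The number lower (138) became 21 with the study's thresholds, 33 without a Y-linked UMI, 30 without the 5% deepest cells, 33 without members holding 3 UMIs of other types, 22 without marked cells, 29 in dorsal cells of those, 85 as a mean over cells, and 553 or 1051 with the lower gene limits. The cause was not tested, and the counts depend on how many genes were measured. That number was 11903 over all granule neurons and 11103 without marked cells, and is not given for the other alternatives. Cells without a Y-linked UMI held 1544196 control and 1103903 tomatidine UMIs, against 61099417 and 44737337 in all granule neurons. Fewer genes can reach the UMI limit in smaller sums, and more pass a lower limit. The counts are therefore not compared as shares. The Cdkn1a ratio was 0.013 with the study's thresholds, 0.38 without members holding 3 UMIs of other types and −0.15 as a mean over cells, and its share differed by −0.91 points without thinning and 0.77 without those members. The share of granule neurons differed by −5.22 points among cells with at least 5000 UMIs and −2.23 with the study's thresholds, and the immediate early gene share by 3.22 points in cells without a Y-linked UMI.

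With the study's thresholds, medians were 0.20 for immediate early factors, −0.014 for metabotropic glutamate receptors, 0.023 for GABA-A subunits and −0.16 for interferon genes. Without a Y-linked UMI they were 0.13 for granule neuron genes, −0.091 for immediate early factors, −0.096 for metabotropic receptors, −0.073 for GABA-A subunits and −0.27 for cholesterol genes. Without members holding 3 UMIs of other types they were 0.090 for granule neuron genes, 0.065 for ventral genes, 0.073 for metabotropic receptors, 0.041 for GABA-A subunits and −0.14 for heat shock genes. Without marked cells, an alternative chosen after seeing the data, they were −0.0035 for metabotropic receptors, 0.037 for GABA-A subunits (0.037 in dorsal cells) and 0.043 for mitochondrial genes. Without the 5% deepest cells they were 0.12 for newborn cell genes, 0.051 for GABA-A subunits and 0.14 for neuropeptides. GABA-A subunits were at 0.027 as a mean over cells, ventral genes at 0.41 with at least 10 marker UMIs, and neuropeptides at 0.037 with TMM and 0.035 with the median of ratios. With genes of at least 20 UMIs newborn genes were at −0.16 and neuropeptides at 0.10; with at least 1 UMI newborn genes were at −0.43, cell division genes at 0.24 and neuropeptides at 0.10. Among named genes, Zic2 turned to 0.056 with the study's thresholds, Amotl1 to 0.15 without marked cells and 0.21 in dorsal cells, Pcp4l1 to 0.062 without the 5% deepest cells, Ccn3 to −0.21 without a Y-linked UMI, and Ccn2 to −0.58 with at least 10 marker UMIs and −3.44 without members holding 3 UMIs of other types. The cause was not tested. Cdkn2a had too few UMIs to compare.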

Other observations

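Further genes, picked after their values were seen, stood higher in ventral-type than in dorsal-type granule neurons. Scn9a, a sodium channel, stood at 15.4 CPM against 1.47 CPM in control and 20.3 against 1.94 CPM in tomatidine. Glp2r, the receptor for glucagon-like peptide 2, stood at 34.4 against 5.24 CPM and at 41.0 against 4.8 CPM. Timp2, an inhibitor of matrix proteases, stood at 330 against 66.0 CPM and at 319 against 80.5 CPM.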
